A study of Mus musculus with 16 samples.

Results

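The polysome profiles of D1 receptor-expressing striatal neurons were made in 2 experimental repeats, and repeat 2 was compared here with repeat 1 across all arrays. Members were chosen by the experimental repeat written in each array's title, and all 16 of the 16 arrays carry one. Repeat 2 held 8 arrays, 5 from deletion mice and 3 from control mice, and repeat 1 held 8 arrays, 4 from deletion mice and 4 from control mice. Deletion mice were homozygous for a deletion of miR-128-2 specific to D1 medium spiny neurons (D1-MSN) and also carried a ribosome tagged in D1-MSN. The controls were age-matched littermates with the tagged ribosome and no deletion, so the tag was shared by all groups. What drives the tag and the deletion in these neurons is not given in the sources used here. All mice were C57BL6/J and 3 months old. The titles call the replicates biological, and the design counts animals, so each array stands for 1 animal.

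Medium spiny neurons are the GABA-releasing output cells of the striatum, and those with the D1 dopamine receptor form the direct pathway to the basal ganglia output nuclei. In a tagged ribosome pulldown, antibodies to a tag on a ribosomal protein collect ribosomes from the tagged cells together with the mRNAs on them. Some ribosomes of a cell are free in the cytosol, and others are bound to the endoplasmic reticulum, where signal recognition particle and the Sec61 translocon receive the messages of secreted, lysosomal and membrane proteins. RNA that reaches the beads without a tagged ribosome, such as nuclear, mitochondrial or glial RNA, is also measured. The medians of all arrays lay between -0.034 and 0.046 log2, so a value is relative to the other signals of its array. A lower value can stand for a smaller part of tagged-cell RNA in the pulldown or for less of that RNA per cell. These cannot be told apart. Animals, dissection, pulldown, amplification and hybridisation may all have changed between repeats, and these steps cannot be told apart either.

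The deposited values are log2 signals with each probe set centred on its own median over the 16 arrays. They therefore show how much an array lies above or below the others for 1 gene, and they do not rank genes by level. A difference below is repeat 2 minus repeat 1 in log2 units, adjusted for genotype and given with its standard error. A gene was called at a Benjamini-Hochberg adjusted limma p under 0.05 over all 16206 genes.

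The first principal component of the probe set values, which held 26.6% of the variance, separated the repeats. It put every repeat 2 array below 0 (-57.8 to -0.65) and every repeat 1 array above it (0.57 to 41.2). On the second component, which held 21% of the variance, the lowest arrays were control repeat 2 replicate 1 at -41.5 and, from the other repeat, control repeat 1 replicate 3 at -49.4. These 2 arrays, 1 in each repeat, also had the highest mean values over 14 oligodendrocyte markers, 1.29 and 1.42, against at most 0.41 on the other arrays. Counts of genes are therefore also given without these 2 control arrays.

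Of 37112 probe sets, 4411 were called (11.9%), 2358 higher in repeat 2 (6.35%) and 2053 lower (5.53%). Of 16206 genes, 2421 were called (14.9%), with 1271 higher (7.84%) and 1150 lower (7.1%). The called differences were mostly moderate, with a median of 0.37 log2 among higher genes and -0.40 among lower genes. They exceeded 1 log2 in 22 of the higher and 25 of the lower genes. The median over all genes was 0.03, and 10284 genes (63.5%) had a positive difference. The median of all probe sets was also higher on repeat 2 arrays, at 0.015 ± 0.024 against -0.010 ± 0.014 on repeat 1 arrays (SD, n = 8 each). That difference of 0.026 had an exact permutation p of 0.029 (0.049 adjusted over 5 control measures). In 271 genes (1.67%) all 8 repeat 2 arrays lay above all 8 repeat 1 arrays, and in 230 genes (1.42%) all 8 lay below. The same held for 639 probe sets (1.72%) above and 449 (1.21%) below. Without the 2 control arrays that stood apart 2243 genes were called, of which 2018 were among the 2421 and all 2018 kept their direction. The split between directions depended on the scaling: with each array centred on its median 967 genes were higher and 1271 lower, and after quantile normalization 1246 and 1432.

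Ribosomal RNA and repeat-derived RNA were lower in repeat 2. Signal of the 3 probe sets for 18S ribosomal RNA averaged -0.95 ± 0.52 log2 on repeat 2 arrays and 0.48 ± 0.37 on repeat 1 arrays (SD, n = 8 each). The difference was -1.45, with a two-sided exact permutation p of 0.00023 over 4410 regroupings within genotype, the smallest p these regroupings can give (0.0011 adjusted over 5 control measures). The probe set for the B1 repeat, a short interspersed element common in introns, averaged -0.40 ± 0.31 on repeat 2 arrays and 0.68 ± 0.46 on repeat 1 arrays (SD, n = 8 each). Its difference was -1.10 (exact permutation p = 0.00045, adjusted 0.0011). Both measures moved with repeat beside every gene class described below, and their part in those differences was not tested.

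**Figure D1:**
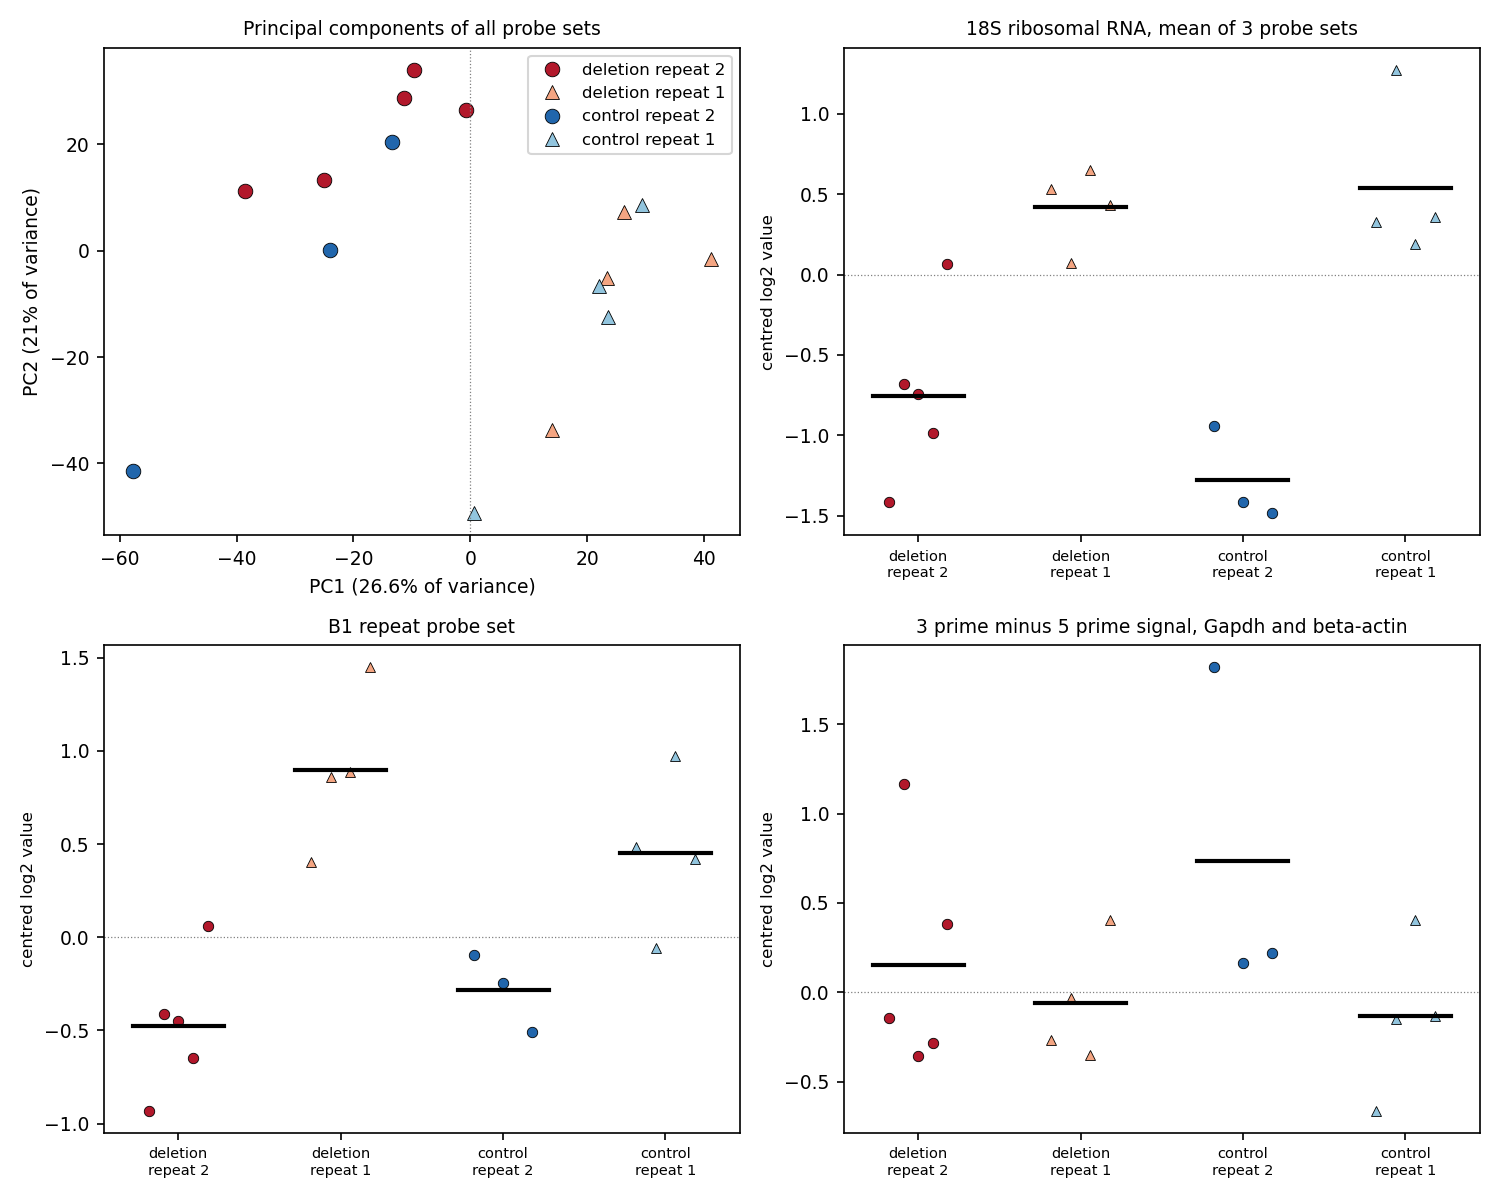
Each point is 1 array, deletion repeat 2 and repeat 1 in red tones and control repeat 2 and repeat 1 in blue tones. The first panel plots principal components 1 and 2 (arbitrary units), and the others plot, in centred log2 units with group means as bars, 18S ribosomal RNA, the B1 repeat and the 3′ minus 5′ signal of control probe sets. Repeat 2 lies left of repeat 1 on the first component and below it in mean 18S (-0.95 against 0.48) and B1 (-0.40 against 0.68) signal.

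ND5 had the largest difference of any called gene with a residual SD of at least 0.075. It encodes a complex I subunit in the mitochondrial genome, and it was the only gene of that genome measured, by 1 probe set. Deletion repeat 2 arrays read -2.18, -0.78, -1.76, -2.24 and -1.22 log2, against 1.28, 2.05, 1.68 and 3.52 in deletion repeat 1. Control repeat 2 arrays read -0.37, -1.92 and -2.13, against 0.94, 0.37, 2.45 and 1.67 in control repeat 1. Every repeat 2 array was negative and every repeat 1 array positive, in both genotypes. The difference was -3.36 ± 0.41 (adjusted p = 0.00016), a signal 10.3-fold lower in repeat 2, with -3.77 within deletion and -2.83 within control.

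The nuclear noncoding RNAs Malat1 and Meg3 were lower, in a list of 20 nuclear-retained and snoRNA host RNAs that otherwise had 3 higher members. The list as a whole had no common direction (median 0.02, and -0.070 over the 16 members with a residual SD, the spread within groups, of at least 0.075). Malat1 lay at -0.87 to 0.03 (median -0.33) on repeat 2 arrays and at 0.06 to 1.08 (median 0.33) on repeat 1 arrays. The ranges did not overlap, and the difference was -0.89 ± 0.19 (adjusted p = 0.0055). Its 7 probe sets ranged from -2.72 to 0.04, and with their median in place of their mean the call was lost (adjusted p = 0.053). Meg3, an imprinted noncoding RNA of neurons, fell by 0.78 ± 0.20 on the log2 scale (adjusted p = 0.017), at -0.84 to 0.21 on repeat 2 arrays against -0.16 to 1.02 on repeat 1 arrays. The 3 higher members were the snoRNA hosts Snhg8 (0.78 ± 0.24), Snhg14 (0.40 ± 0.10) and Gas5 (0.34 ± 0.11). Of 1014 genes annotated as lncRNA, a class gathered after the values were seen, 42 were higher (4.14%) and 5 lower (0.493%), both shares under those of all genes. The higher count was 27 without control repeat 2 replicate 2 or with each array centred on its median. Of the 1014, 594 had a residual SD under 0.075. With only the other genes tested, 45 of 420 lncRNA genes were higher and 7 lower, against 1290 and 1202 of all 11714 genes. A positive difference was seen in 83.3% of the 1014, against 63.5% of all genes. This share was not particular to lncRNA genes. It was 94.6% of 37 olfactory and vomeronasal receptors and 84.8% of 33 keratins, of which 33 and 23 had a residual SD under 0.075. With each array centred on its median, the lncRNA median went from 0.031 to 0.0049.

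Genes for the entry of proteins into the endoplasmic reticulum fell together. Among 33 measured subunits of signal recognition particle, signal peptidase, the translocon and oligosaccharyltransferase, 17 were lower (51.5%) and 1 was higher, against 7.1% lower among all genes. Their median difference was -0.30, against 0.03 over all genes. This class was put together after the values were seen, and its share describes the choice as well as the arrays. The array mean over the 33 genes lay at -0.43 to 0.00 in repeat 2 and at -0.08 to 0.33 in repeat 1. The counts were 15 lower and 1 higher without the 2 control arrays, and 14 and 2 with the 3′ minus 5′ signal as a covariate.

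Sec61a2, an alpha subunit of the translocon channel, lay at -2.06 to 0.01 (median -0.36) on repeat 2 arrays and at -0.40 to 1.38 (median 0.74) on repeat 1 arrays. It differed by -1.23 ± 0.29 (adjusted p = 0.010), with some overlap. Stt3b, a catalytic subunit of oligosaccharyltransferase, which adds N-linked sugars, lay at -0.56 to -0.06 in repeat 2 and at 0.01 to 1.39 in repeat 1. Here no repeat 2 array reached the lowest repeat 1 array, and the difference was -0.70 ± 0.16 (adjusted p = 0.0082). Ddost, another subunit of that enzyme, fell by 0.69 ± 0.18 on the log2 scale (adjusted p = 0.021). Spcs2, a signal peptidase subunit named after its values were seen, fell by 0.48 ± 0.08 (adjusted p = 0.0011). Some chaperones of the same compartment were lower. Of 25 unfolded protein and ATF4 response genes 5 were lower and 2 higher, with a median of -0.17, which was -0.079 with the 3′ minus 5′ signal as a covariate (3 lower), -0.081 without deletion repeat 2 replicate 2 and -0.099 without control repeat 2 replicate 2. The lower ones included Canx, the lectin chaperone calnexin (-0.43 ± 0.09), and Pdia6, a disulfide isomerase (-0.40 ± 0.08).

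Ostm1 and Atp6ap1, both of the lysosome, separated the repeats without overlap. Ostm1, named after its values were seen and the beta subunit of the lysosomal chloride transporter ClC-7, lay at -1.01 to -0.25 (median -0.50) in repeat 2 and at 0.25 to 0.79 (median 0.57) in repeat 1. It differed by -1.11 ± 0.08 (adjusted p = 3.6e-06), by -1.10 within deletion and -1.12 within control. Atp6ap1, an accessory subunit of the proton pump that acidifies these organelles, lay at -0.54 to -0.16 in repeat 2 and at 0.16 to 0.89 in repeat 1 (-0.98 ± 0.09, adjusted p = 2.7e-05). The gap between the nearest arrays of the 2 repeats was wider in Ostm1. Of 21 vacuolar ATPase genes, a class gathered after the values were seen, 6 were lower (28.6%) and 1 higher, with a median of -0.10. The median was -0.01 with the 3′ minus 5′ signal as a covariate.

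Of 17 cathepsins, the lysosomal proteases, 4 were lower (23.5%) and none higher, with a median of -0.07. Of them 8 varied little between arrays (residual SD under 0.075), and the other 9 had a median of -0.45. Array means over all 17 did not overlap, at -0.24 to -0.02 in repeat 2 and 0.02 to 0.26 in repeat 1. This class was gathered after the values were seen, so the separation describes the choice as well as the arrays. Ctsd, the aspartyl protease cathepsin D, lay at -0.50 to -0.09 in repeat 2 and 0.09 to 0.52 in repeat 1 (-0.48 ± 0.08, adjusted p = 0.00081). Ctsb differed by -0.67 ± 0.12 (adjusted p = 0.0025). The count of lower cathepsins was 3 without the 2 control arrays, and 2 without deletion repeat 1 replicate 3 or without control repeat 2 replicate 2. Outside these classes, and named after their values were seen, Sort1, the sorting receptor sortilin, fell by 0.48 ± 0.08 (adjusted p = 0.0011), Leprot, an endosomal membrane protein, fell by 0.71 ± 0.08 (adjusted p = 9.3e-05), and Sppl2a, an intramembrane protease of lysosomes, fell by 1.03 ± 0.15 (adjusted p = 0.00061).

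**Figure D2:**
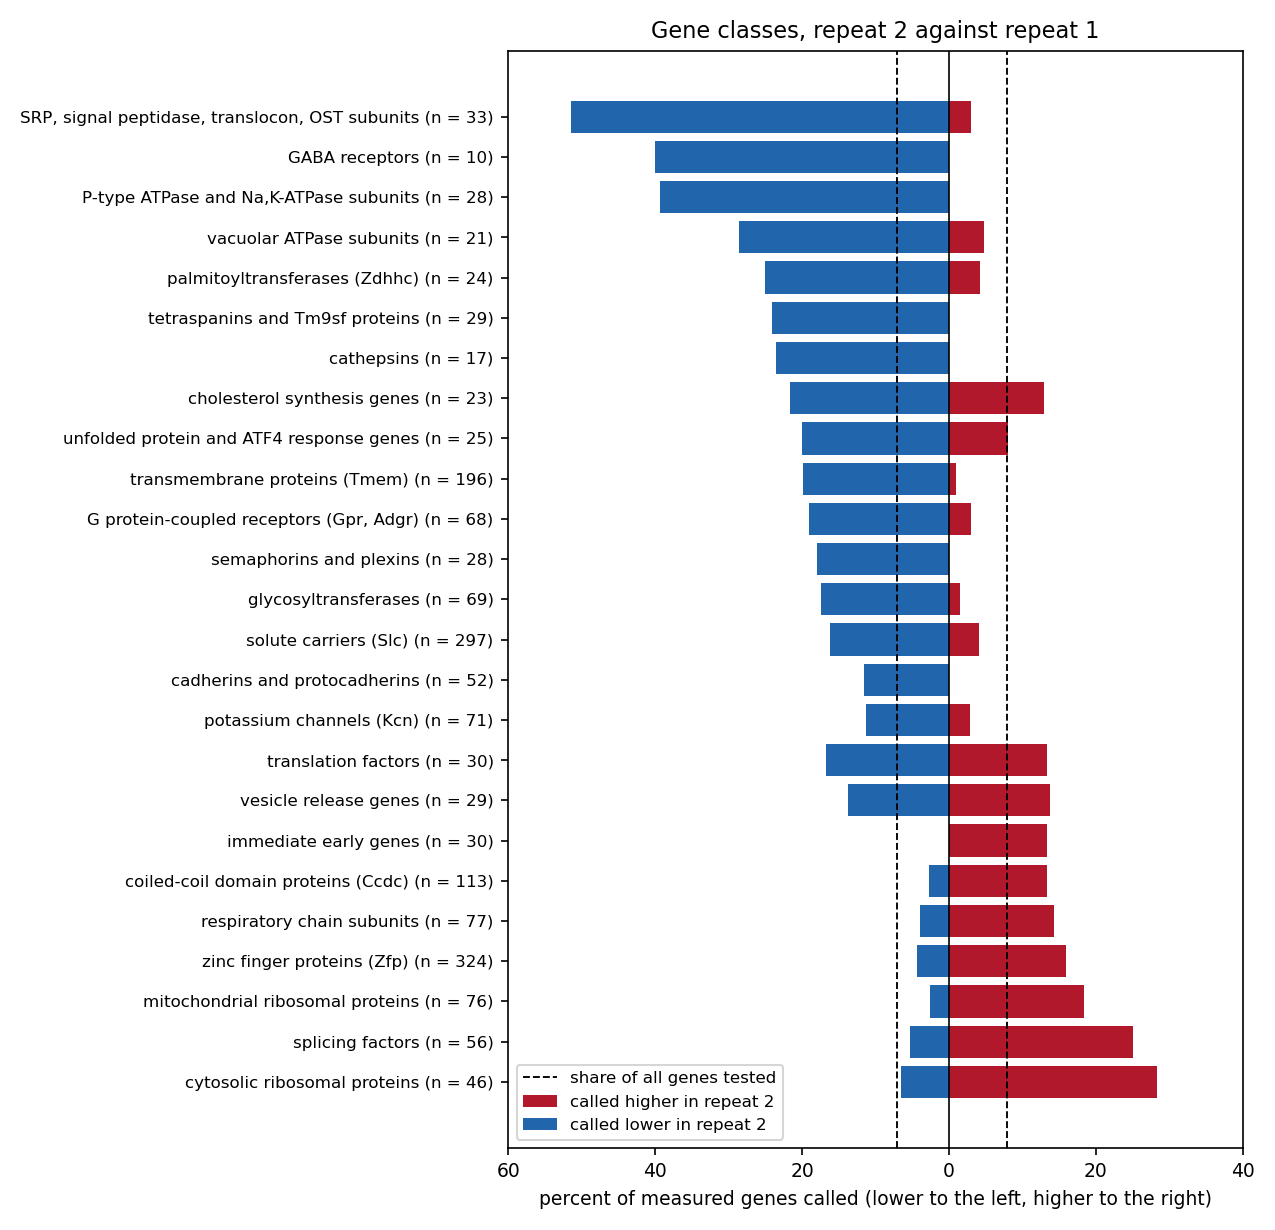
Bars give the percent of the measured genes of each class called higher (right, red) or lower (left, blue) in repeat 2 than in repeat 1, with the number of genes measured beside each name. Dashed lines mark the shares of all genes tested, 7.84% higher and 7.1% lower. Membrane and secretory classes extend to the left, up to 51.5%, and ribosomal, splicing and zinc finger genes to the right, up to 28.3%. The endoplasmic reticulum entry, both ATPase, Zdhhc, tetraspanin, cathepsin, Gpr and Adgr, semaphorin, glycosyltransferase and cadherin classes were gathered after the values were seen. Late classes with more higher than lower calls are not drawn, so the bars do not weigh the directions against each other.

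The broad families of membrane proteins were called lower more often than higher. Of 196 genes named Tmem 39 were lower (19.9%) and 2 higher, and of 297 solute carriers 48 were lower (16.2%) and 12 higher. Their medians were -0.04 and 0.01, against 0.03 over all genes. These medians included many flat genes: over the 165 Tmem and 200 solute carrier genes with a residual SD of at least 0.075 they were -0.12 and -0.10, against 0.01 over all 11714 such genes. Without the 2 control arrays the counts were 35 lower and 2 higher for Tmem genes, and 43 and 11 for solute carriers. The lower Tmem genes numbered 27 within deletion and 8 within control. Among all 16206 genes 624 (3.85%) were lower within deletion and 214 (1.32%) within control.

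Tmem185a, a multi-pass membrane protein, lay at -1.05 to -0.33 (median -0.58) in repeat 2 and at 0.33 to 1.06 (median 0.64) in repeat 1. It differed by -1.34 ± 0.10 (adjusted p = 7e-06), by -1.49 within deletion and -1.15 within control. Slc24a4, a potassium-dependent sodium and calcium exchanger, lay at -1.56 to -0.14 in repeat 2 and at 0.14 to 1.15 in repeat 1 (-1.50 ± 0.21, adjusted p = 0.0004). Neither gene overlapped between repeats. Slc7a4, of the cationic amino acid transporter family, also separated them, at -1.49 to -0.11 in repeat 2 and 0.05 to 0.74 in repeat 1 (adjusted p = 0.005). Slc25a23, a calcium-regulated ATP carrier of the inner mitochondrial membrane, went the other way at 0.88 ± 0.19.

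Of 22 classes gathered after the values were seen, 13 had more lower than higher calls, 8 more higher than lower, and 1 as many of each. Among those with more higher calls were the F-box and cullin ligase genes, 10 higher and 4 lower of 71, and the Ube2 ubiquitin-conjugating enzymes, 4 higher and none lower of 29. Of 28 P-type ATPase and Na,K-ATPase genes 11 were lower (39.3%) and none higher, with a median of -0.10 (-0.29 over the 16 with a residual SD of at least 0.075), and the count was 7 without any 1 of deletion repeat 2 replicate 1, deletion repeat 1 replicate 2 or deletion repeat 1 replicate 3. Atp9a, a relative of the lipid flippases, lay at -0.69 to -0.07 in repeat 2 and at 0.07 to 0.50 in repeat 1 (-0.55 ± 0.08, adjusted p = 0.00055). Atp1b3, a beta subunit of the sodium pump, differed by -0.38 ± 0.07 (adjusted p = 0.002). Of 24 Zdhhc palmitoyltransferases, which attach fatty acids to proteins, 6 were lower and 1 higher (median -0.20). Of 29 tetraspanins and Tm9sf proteins 7 were lower and none higher (median -0.09), among them Cd81 (-0.53 ± 0.10) and Tspan3 (-0.54 ± 0.08). Of 69 glycosyltransferases 12 were lower and 1 higher (median 0.00, and -0.075 over 51 with a residual SD of at least 0.075), and of 68 G protein-coupled receptors named Gpr or Adgr 13 were lower and 2 higher (median -0.01, and -0.14 over 47 such genes).

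Several receptors and channels of the neuronal surface were lower. Of 10 measured GABA receptor genes 4 were lower and none higher, with a median of -0.24, and the 4 stayed 4 without the 2 control arrays. Gabbr1, a subunit of the metabotropic GABA-B receptor, lay at -0.32 to -0.14 (median -0.19) in repeat 2 and at -0.03 to 0.63 (median 0.47) in repeat 1. The repeats did not overlap, and the difference was -0.63 ± 0.07 (adjusted p = 9e-05), with -0.74 within deletion and -0.49 within control. Gabra2 (-0.76 ± 0.18) and Gabrg3 (-0.76 ± 0.15), subunits of the GABA-A chloride channel, were called as well. Gabra5 was called at -0.41 ± 0.11 (adjusted p = 0.024), and the call was lost without deletion repeat 1 replicate 3, without control repeat 2 replicate 1 and with the 3′ minus 5′ covariate.

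Scn3b, an auxiliary subunit of sodium channels, fell by 0.73 ± 0.11 (adjusted p = 0.00066). It was one of 3 lower (13%) and 1 higher (4.35%) among 23 sodium and calcium channel genes. Kcnk2, the leak potassium channel TREK-1, lay at -0.62 to -0.05 in repeat 2 and at 0.05 to 0.54 in repeat 1 (-0.66 ± 0.08, adjusted p = 0.00021). It was one of 8 lower (11.3%) and 2 higher (2.82%) among 71 potassium channel genes, against 7.1% and 7.84% of all genes. Of 19 glutamate receptor genes 1 was lower (5.26%, under the 7.1% of all genes) and none higher. The difference from the GABA receptor list was not tested.

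Synaptic vesicle release genes went in both directions, with 4 of 29 higher and 4 lower. Sv2a, a membrane glycoprotein of synaptic vesicles, lay at -0.51 to -0.07 in repeat 2 and at 0.07 to 0.55 in repeat 1 (-0.61 ± 0.07, adjusted p = 9.2e-05). Snap25, a SNARE protein of the plasma membrane that is made on free ribosomes, was higher at 0.46 ± 0.07 (adjusted p = 0.00066). Its 2 probe sets did not move together: one differed by 1.08 and the other by -0.16. The list had 1 lower gene left without deletion repeat 2 replicate 1, 2 or 5, deletion repeat 1 replicate 3, control repeat 2 replicate 2 or control repeat 1 replicate 1 or 3, and 2 higher genes left without deletion repeat 1 replicate 1 or 2 or control repeat 2 replicate 2.

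**Figure D3:**
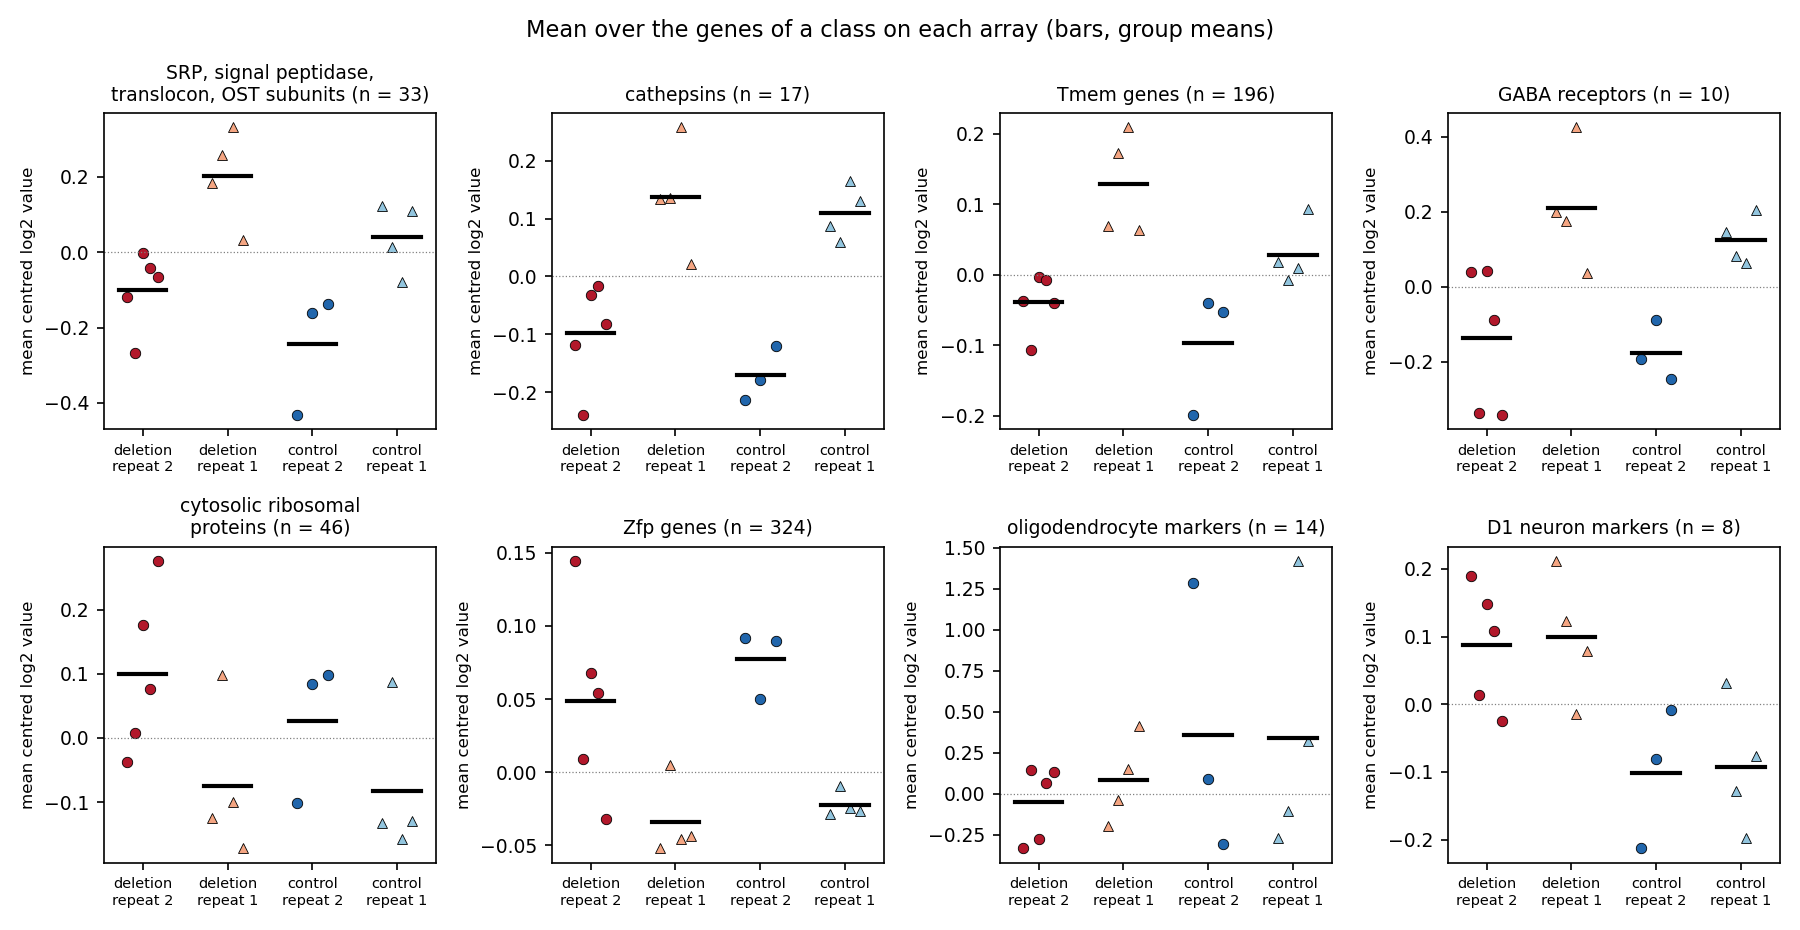
Each point is the mean centred log2 value over the genes of a class on 1 array, with groups in the order deletion repeat 2, deletion repeat 1, control repeat 2 and control repeat 1 and bars for group means. Cathepsin means separate the repeats without overlap (-0.24 to -0.02 in repeat 2, 0.02 to 0.26 in repeat 1), and ribosomal protein means run the other way with overlap. The cathepsin class and the endoplasmic reticulum entry class were gathered after the values were seen.

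Cytosolic ribosomal protein genes were called higher more often than lower. Of 46 cytosolic ribosomal protein genes 13 were higher (28.3%) and 3 lower, with a median of 0.13. The counts were 14 and 1 without the 2 control arrays. Array means lay at -0.10 to 0.28 in repeat 2 and at -0.17 to 0.10 in repeat 1, so the repeats overlapped for the class as a whole. Rpl14 rose by 0.67 ± 0.13 (adjusted p = 0.0026) and Rpl22 by 0.68 ± 0.13 (adjusted p = 0.0037). Rps26 did the opposite, at -1.05 to -0.23 in repeat 2 and 0.23 to 0.63 in repeat 1 (-0.83 ± 0.10, adjusted p = 0.00014). Ribosomal protein genes have many near-identical processed copies, so signal from these could not be separated and the values are uncertain. The 3 probe sets of Rpl22 differed by 1.27, 0.93 and -0.16.

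Translation factors did not share a direction, with 4 of 30 higher and 5 lower. Eif5b, which joins the ribosomal subunits at initiation, lay at 0.18 to 0.58 (median 0.41) in repeat 2 and at -0.59 to -0.12 (median -0.52) in repeat 1. The repeats did not overlap, and the difference was 0.83 ± 0.08 (adjusted p = 2.7e-05). Eef2, the translocation factor of elongation, fell by 0.44 ± 0.10 (adjusted p = 0.0082). With the 3′ minus 5′ signal as a covariate the list had 10 higher and 4 lower genes.

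Nuclear genes for mitochondrial proteins were called higher more often than lower, unlike the mitochondrially encoded ND5. Of 76 mitochondrial ribosomal protein genes 14 were higher (18.4%) and 2 lower, with a median of 0.08. The count was 19 without the 2 control arrays, 7 with each array centred on its median and 27 with the 3′ minus 5′ covariate. It was 6 to 9 without any 1 of 11 arrays, all but deletion repeat 2 replicates 1 and 2, deletion repeat 1 replicate 2, control repeat 2 replicate 1 and control repeat 1 replicate 2. Mrpl13, of the large subunit, was called under every alternative, at 0.07 to 0.51 in repeat 2 and -0.56 to -0.12 in repeat 1 (0.66 ± 0.07, adjusted p = 5.3e-05). Of 77 respiratory chain genes 11 were higher (14.3%) and 3 lower, with a median of 0.05. The higher count was 17 without deletion repeat 2 replicate 1 and 7 without control repeat 2 replicate 2 or with each array centred on its median. Complex I subunits led it. Ndufa5 lay at 0.11 to 0.35 in repeat 2 and at -0.20 to -0.04 in repeat 1 (0.34 ± 0.04, adjusted p = 0.00013), and Ndufa6, Ndufb10 and Ndufs5 differed by 0.48 ± 0.07, 0.48 ± 0.10 and 0.45 ± 0.07.

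Zinc finger genes were called higher more often than lower. Of 324 genes named Zfp 52 were higher (16%) and 14 lower, with a median of 0.06, and 68.8% had a positive difference, against the 63.5% of all genes. Without the 2 control arrays 45 were higher and 12 lower, and with each array centred on its median 39 and 18. Zfp263 lay at 0.08 to 1.13 in repeat 2 and at -0.66 to -0.15 in repeat 1 (0.92 ± 0.14, adjusted p = 0.00071). Zfp62 differed by 0.77 ± 0.11 (adjusted p = 0.0004), also without overlap. Both encode nuclear DNA-binding proteins.

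Splicing factors were called higher more often than lower. Of 56 splicing factors 14 were higher (25%) and 3 lower, though their median was 0.00 and 28 differences were positive and 28 negative. Ddx5, an RNA helicase, lay at 0.04 to 0.46 in repeat 2 and at -0.62 to -0.05 in repeat 1 (0.59 ± 0.08, adjusted p = 0.00036). Snrpf, a core protein of spliceosomal particles, differed by 0.57 ± 0.06 (adjusted p = 9.2e-05). Prpf8, a core protein of the spliceosome, fell by 0.73 ± 0.13 (adjusted p = 0.0018). Among 30 genes of mRNA decay 5 were higher and 2 lower, and Upf1, the helicase of nonsense-mediated decay, lay at 0.03 to 0.99 in repeat 2 and at -1.10 to -0.03 in repeat 1 (1.07 ± 0.16, adjusted p = 0.00066). Without deletion repeat 1 replicate 3 that list had 3 higher genes. Of 51 DEAD and DEAH box helicases 6 were higher (11.8%) and 1 lower, and of 44 histone genes 4 were higher (9.09%) and none lower. These shares stand beside 7.84% higher among all genes, and that of the histones was close to it.

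Cholesterol synthesis genes split by gene, with 3 of 23 higher and 5 lower (median -0.14). Scap, the membrane escort of the sterol-sensing transcription factors, lay at -0.76 to -0.16 in repeat 2 and at 0.16 to 0.49 in repeat 1 (-0.75 ± 0.07, adjusted p = 3.1e-05). Insig1, which holds that escort in the endoplasmic reticulum, lay at 0.13 to 0.67 in repeat 2 and at -0.79 to -0.13 in repeat 1 (0.75 ± 0.11, adjusted p = 0.00058). Both separated the repeats completely, in opposite directions. Ebp, a sterol isomerase, fell by 0.73 ± 0.13 (adjusted p = 0.0021).

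Among the 12 genes with the largest rises Ring1 came first. Ring1, a ubiquitin ligase of Polycomb complexes, lay at -0.02 to 1.16 in repeat 2 and at -1.47 to 0.02 in repeat 1 (1.40 ± 0.20, adjusted p = 0.00052). Polr2a, the largest subunit of RNA polymerase II, lay at -0.03 to 1.50 in repeat 2 and at -1.18 to 0.03 in repeat 1 (1.32 ± 0.16, adjusted p = 0.00017). In these 2 genes the highest repeat 1 array just passed the lowest repeat 2 array. Epop (1.29 ± 0.18), a partner of Polycomb repressive complex 2, Ninl (1.26 ± 0.15), a centrosomal protein, Ap2a1 (1.20 ± 0.14), a clathrin adaptor subunit, Homez (1.19 ± 0.16), a homeobox protein, and Lrif1 (1.16 ± 0.15), a heterochromatin protein, had no overlap. Frg1, a nuclear protein, lay at 0.27 to 0.95 in repeat 2 and at -1.28 to -0.27 in repeat 1 (1.19 ± 0.10, adjusted p = 1.1e-05), and Ppa2, the mitochondrial pyrophosphatase, differed by 1.09 ± 0.10. Rgcc and Scaf4 differed by 1.33 ± 0.29 and 1.26 ± 0.23 with overlap. S1pr5 was called at 1.28 ± 0.39 (adjusted p = 0.04), and its call was lost on leaving out any 1 of 11 arrays, all but deletion repeat 2 replicates 1 and 3, deletion repeat 1 replicate 4, control repeat 2 replicate 3 and control repeat 1 replicate 3 (highest adjusted p = 0.084).

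The smallest adjusted p of any gene belonged to Psme3, the activator subunit PA28 gamma of the nuclear proteasome, which was named for that reason after its value was seen. It lay at 0.27 to 0.48 in repeat 2 and at -0.44 to -0.24 in repeat 1, and differed by 0.72 ± 0.04 (adjusted p = 2.6e-07), by 0.74 within deletion and 0.69 within control. That value rested mainly on 1 of 3 probe sets, which differed by 1.66, while the others differed by 0.46 and 0.04.

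**Figure D4:**
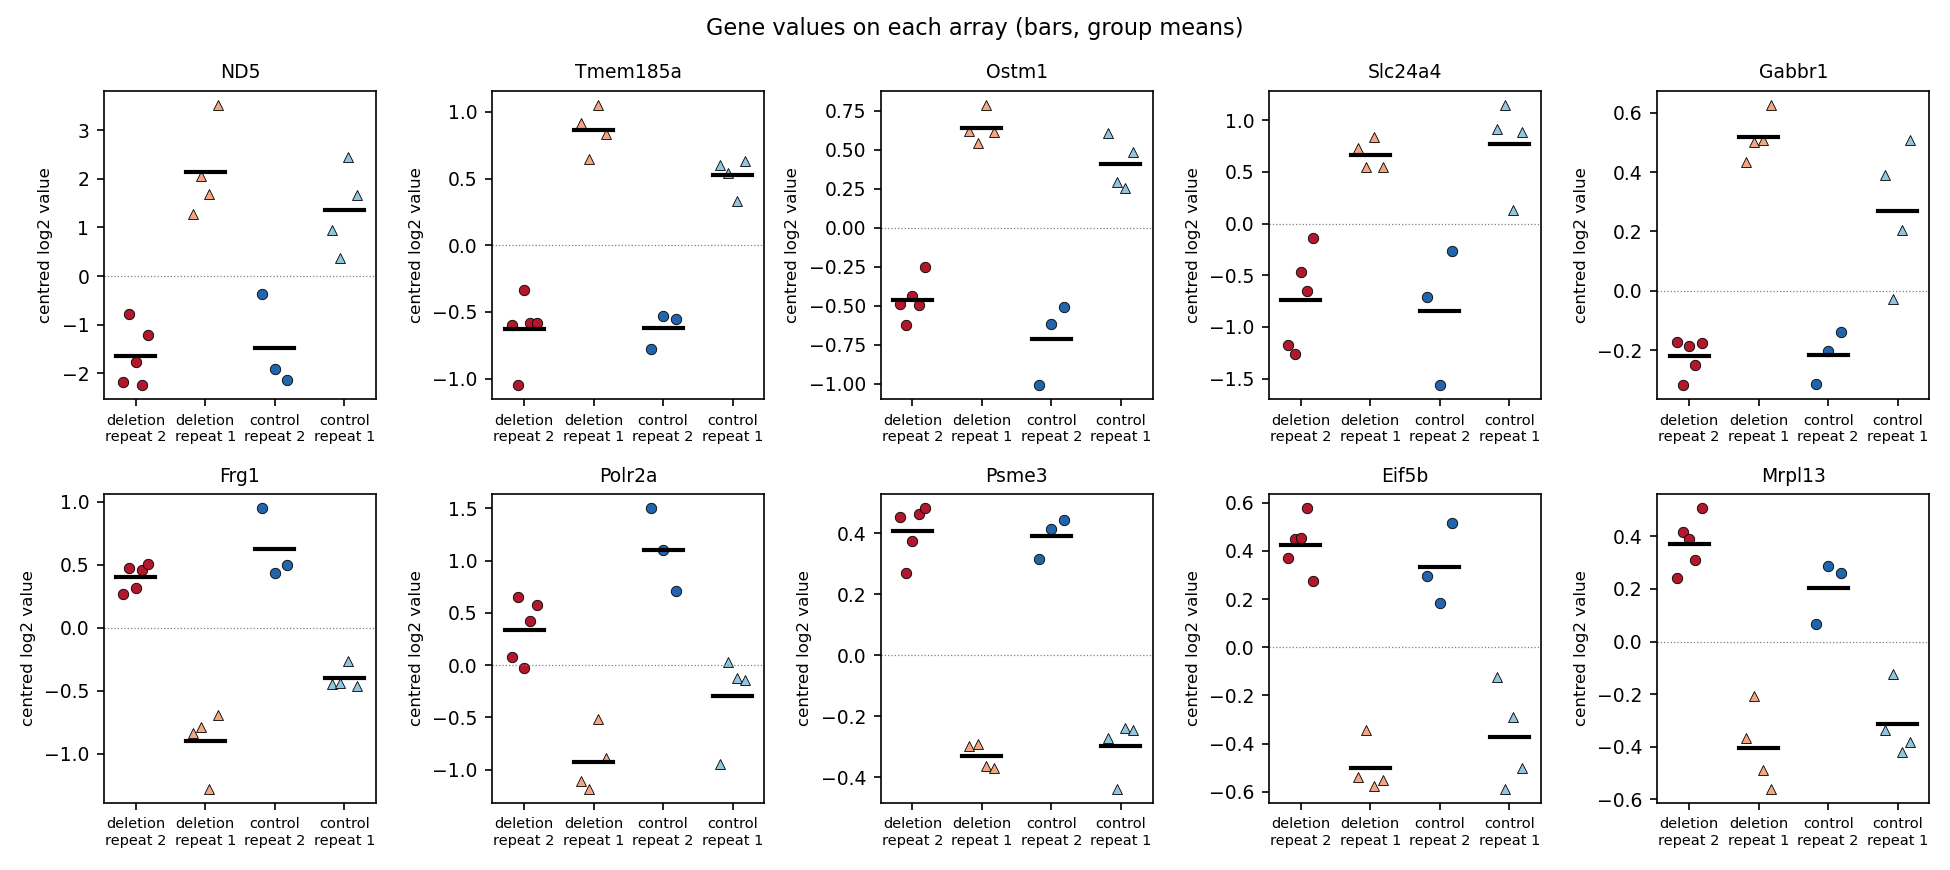
Each panel plots 1 gene in centred log2 units on the 16 arrays, in the order deletion repeat 2, deletion repeat 1, control repeat 2 and control repeat 1, with bars for group means. ND5, Tmem185a, Ostm1, Slc24a4 and Gabbr1 are lower in repeat 2 (-3.36, -1.34, -1.11, -1.50 and -0.63), and Frg1, Polr2a, Psme3, Eif5b and Mrpl13 are higher (1.19, 1.32, 0.72, 0.83 and 0.66).

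Among the 12 genes with the largest falls Col6a1 followed ND5 and Slc24a4 came next. Col6a1, a collagen VI chain, lay at -1.97 to 0.20 in repeat 2 and at -0.14 to 1.43 in repeat 1 (-1.66 ± 0.30, adjusted p = 0.0021). Apoe, the lipid carrier that glia secrete, lay at -2.05 to 0.05 in repeat 2 and at -0.05 to 1.12 in repeat 1 (-1.46 ± 0.30, adjusted p = 0.0045). In both the repeats overlapped slightly. Ano3, a membrane protein of the anoctamin family, differed by -1.42 ± 0.25, Tmem178b by -1.36 ± 0.30, Htra1, a secreted serine protease, by -1.29 ± 0.26, and Adcy6, an adenylyl cyclase, by -1.20 ± 0.22. Swsap1, a DNA repair protein, differed by -1.22 ± 0.17. Slc29a1, a nucleoside transporter, was called at -1.32 ± 0.39 (adjusted p = 0.033), and its call was lost on leaving out any 1 of 10 arrays, all but deletion repeat 2 replicates 1, 3 and 4, deletion repeat 1 replicate 4, control repeat 2 replicate 3 and control repeat 1 replicate 3 (highest adjusted p = 0.077).

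Markers of cell types other than the tagged D1 neurons gave few calls, against 14.9% called among all genes. None was called among 14 oligodendrocyte, 5 oligodendrocyte precursor, 12 astrocyte, 9 microglia, 10 vascular, 8 meningeal, 8 choroid plexus, 6 blood cell and 10 striatal interneuron genes, nor among 5 D2 neuron genes. The D2 median was still -0.23 (4 of 5 differences negative) and the astrocyte median -0.10 (9 of 12 negative), against 0.03 over all genes. D2 array means lay at -0.41 to 0.39 in repeat 2 and at 0.02 to 0.51 in repeat 1. Control repeat 2 replicate 1, at 0.39, was the only repeat 2 array above 0. In deletion mice the means did not overlap (-0.27 to -0.10 against 0.04 to 0.26). Without the 2 control arrays the D2 median was -0.35. The medians of the other lists just named were 0.02 to 0.05. Many of these genes were flat and could hardly be called. A residual SD under 0.075 was found in 4 microglia, 5 vascular, 7 meningeal, 4 choroid plexus and 4 blood cell genes. Over the remaining genes the medians were -0.11 for 5 microglia, 0.12 for 5 vascular and 0.093 for 4 choroid plexus genes. With only such genes tested, 1 choroid plexus and 2 astrocyte genes were lower. Without the 2 control arrays 1 D2, 1 choroid plexus, 1 oligodendrocyte, 2 astrocyte and 2 microglia genes were lower. Oligodendrocyte array means ran from -0.33 to 1.29 in repeat 2 and from -0.27 to 1.42 in repeat 1, so the repeats covered the same range. Ttr, the marker of choroid plexus, spread from -2.57 to 7.35 in repeat 2 and from -2.41 to 5.08 in repeat 1 (2.01 ± 1.25, adjusted p = 0.27). Of 11 glutamatergic neuron markers, only Tbr1, a transcription factor of deep cortical layers, was called (0.86 ± 0.23, adjusted p = 0.022). The median of that list was 0.15, and -0.059 with the 3′ minus 5′ signal as a covariate.

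Among the markers of the tagged cells 2 of 8 D1 genes were higher and none lower. Isl1, a transcription factor of D1 neurons, lay at -0.14 to 0.34 in repeat 2 and at -0.32 to -0.01 in repeat 1 (0.34 ± 0.07, adjusted p = 0.0042). Ebf1 was called at 0.33 ± 0.10 (adjusted p = 0.033), though its 4 probe sets were called in opposite directions, at 0.98, 0.62, 0.38 and -0.68. The call was lost without any 1 control array other than control repeat 1 replicate 2, and without deletion repeat 2 replicate 1 or deletion repeat 1 replicate 3 (highest adjusted p = 0.075). The other 6 D1 markers had negative differences that were not called, and array means over the 8 genes covered the same range in both repeats, -0.21 to 0.19 in repeat 2 and -0.20 to 0.21 in repeat 1. Of 17 markers shared by all striatal projection neurons 1 was higher and 2 lower, and the clearest was Actn2, a cytoskeletal cross-linker (-0.64 ± 0.12, adjusted p = 0.0029). Centred values hold no level, so whether these arrays carry more D1 than other markers could not be checked from them.

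Immediate early genes, which respond to neuronal activity, gave 4 of 30 higher (13.3%) and none lower, against 7.84% higher among all genes. The count depended on single arrays and on the scaling, as given below. Egr3, a transcription factor of that response, lay at 0.01 to 0.24 in repeat 2 and at -0.25 to -0.01 in repeat 1 (0.22 ± 0.04, adjusted p = 0.0035). That value rested on 1 of its probe sets, which differed by 0.42, while the other differed by 0.01. Gadd45b differed by 0.32 ± 0.07 (adjusted p = 0.0083). The count was 2 without the 2 control arrays, 2 with each array centred on its median, and also 2 without deletion repeat 2 replicate 2, 4 or 5, deletion repeat 1 replicate 2 or 3, control repeat 2 replicate 1 or 2, or control repeat 1 replicate 1. None of 21 circadian clock, 19 interferon-stimulated or 23 cell cycle genes was called, nor any of 6 sex-linked genes. Eif2s3y, on the Y chromosome, fell into clearly separate levels, at -4.10 to -3.99 on 4 of 8 repeat 2 arrays and at -4.18 and -4.12 on 2 of 8 repeat 1 arrays, and at -0.62 to 1.50 on all others. The Y-linked gene Kdm5d was low on the same 6 arrays, which were deletion repeat 2 replicates 2, 3 and 5, control repeat 2 replicate 1, deletion repeat 1 replicate 2 and control repeat 1 replicate 2. The repeats thus held Y-linked signal unequally. With the mean of these 2 genes as a covariate, an alternative chosen after seeing the data, 2322 genes were called, of which 2240 were among the 2421 and all 2240 kept their direction.

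RNA quality was read from control probe sets near each end of the Gapdh and beta-actin messages, as 3′ minus 5′ signal, which grows with truncated RNA. It averaged 0.37 ± 0.76 on repeat 2 arrays and -0.10 ± 0.36 on repeat 1 arrays (SD, n = 8 each). The difference of 0.50 did not pass the exact permutation test (p = 0.13, adjusted 0.16). Control repeat 2 replicate 1 was highest at 1.82, followed by deletion repeat 2 replicate 2 at 1.17. With this signal as a covariate 2616 genes were called, of which 1914 were among the 2421 and all 1914 kept their direction.

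Probe sets of the same gene did not always move together. Of 574 genes with at least 2 called probe sets, 249 had them all higher, 201 all lower and 124 in opposite directions. Bclaf1, an RNA-binding nuclear protein named after its values were seen, had probe sets at 0.58 and -1.67. Arf6, a small GTPase named in the same way, differed by 1.49 in 1 probe set and by 0.06 to 0.11 in the other 3. The share of calls also differed with the ending of the probe set name. Those with a name ending in _x_at, which may match several transcripts in part, were higher in 13.6% and lower in 4.63% of 2202, against 5.31% higher and 5.3% lower of 29024 plain probe sets. Probe sets with no listed gene were called least, 2.42% higher and 1.71% lower of 6613.

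Most genes, 12258 of 16206 (75.6%), had a difference of the same sign in deletion and control mice. Within deletion mice 1292 genes were called (7.97%), 668 higher (4.12%) and 624 lower (3.85%). Within control mice 463 genes were called (2.86%), 249 higher (1.54%) and 214 lower (1.32%), from 3 repeat 2 arrays against 4 repeat 1 arrays. Of the 1292 deletion calls 1244 (96.3%) had the same sign in control mice, where 291 (22.5%) were called as well. Of the 463 control calls 451 (97.4%) had the same sign in deletion mice, and the shared 291 were 62.9% of them. Genes called within deletion had a median difference of 0.50 in deletion and 0.30 in control mice where they were higher, and of -0.50 and -0.34 where they were lower. These genes were selected on the deletion values, so their medians are a description and no comparison of the genotypes.

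Over all genes the differences in the 2 genotypes correlated at r = 0.65 across genes, which are not independent replicates. The genotypes share no array in this comparison. All of the 2421 genes called over both genotypes had the same sign in each, which the pooled call nearly fixes and which is no evidence that the genotypes are alike. The interaction of repeat with genotype was called in 0 genes and 0 probe sets by limma (0%), with 684 genes (4.22%) and 1427 probe sets (3.85%) at an unadjusted p under 0.05. A p that misses the threshold does not show that the genotypes responded alike.

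**Figure D5:**
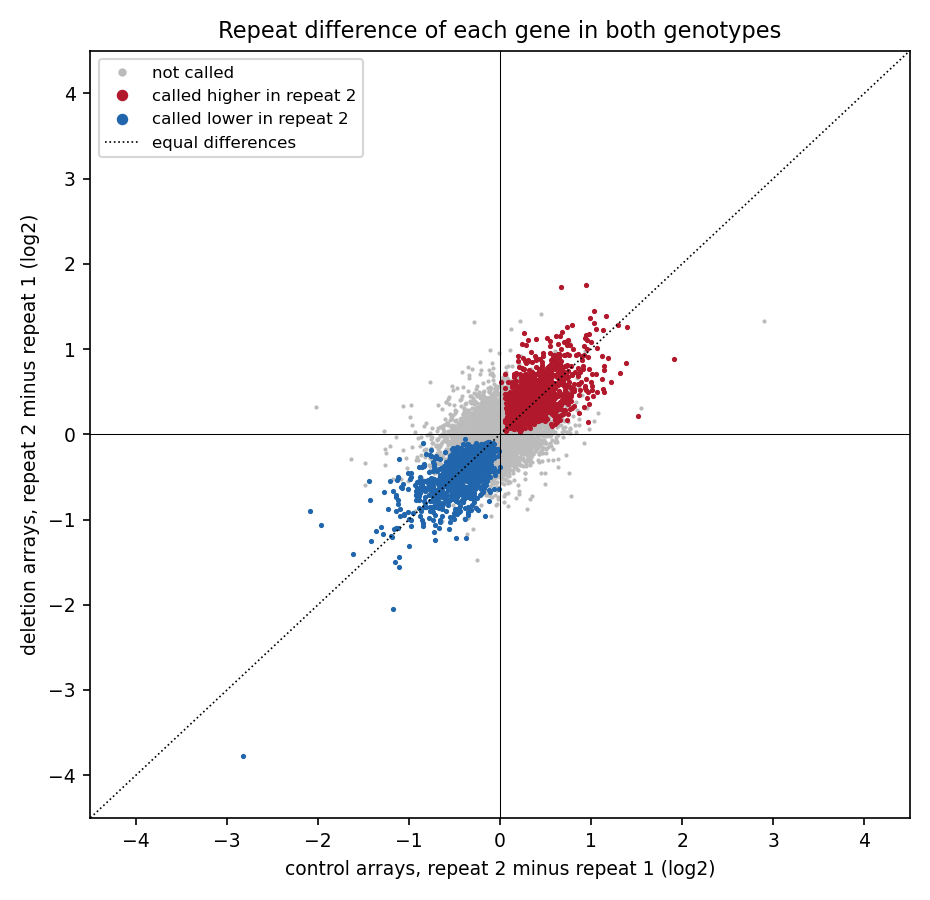
Each point is 1 of 16206 genes, with the repeat 2 minus repeat 1 difference in deletion mice on the vertical axis and in control mice on the horizontal axis, both in log2 units. Genes called over both genotypes (red higher, blue lower) lie in the quadrants of equal sign, and the correlation over all genes is 0.65.

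The strongest interactions, named after their values were seen, were those of Ecpas, a proteasome adaptor, Taf1, a subunit of the general transcription factor TFIID, and Ttc17. Ecpas differed by 0.30 within deletion and by -0.21 within control, an interaction of 0.52 ± 0.09. Taf1 differed by 0.33 within deletion and by -1.07 within control (1.40 ± 0.26), and Ttc17 by -0.65 and -0.01 (-0.63 ± 0.12). The adjusted p was 0.74 for all of them. Among the classes, the endoplasmic reticulum entry genes had medians of -0.30 in deletion and -0.28 in control mice, GABA receptors -0.20 and -0.35, cytosolic ribosomal proteins 0.16 and 0.07, mitochondrial ribosomal proteins 0.08 and 0.08, and Zfp genes 0.06 and 0.08. Of 81 lists and classes 63 had medians of the same sign in both genotypes and 18 of opposite sign. The medians over all genes were positive in both, at 0.018 in deletion and 0.036 in control mice. A list no different from all genes would thus share a sign as well, and the count of 63 is no measure of agreement. Opposite signs were seen in proteasome subunits (0.13 in deletion and -0.05 in control mice), translation factors (0.09 and -0.03), glutamate receptors (-0.08 and 0.06), circadian clock genes (0.05 and -0.10) and solute carriers (-0.01 and 0.03). The differences between these medians were not tested.

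The counts within 1 genotype depended on single arrays. Within deletion they were 392 higher and 343 lower without deletion repeat 1 replicate 3, and 437 higher without deletion repeat 1 replicate 4. Within control they were 127 and 86 without control repeat 2 replicate 1, 109 and 81 without control repeat 2 replicate 2, 103 and 83 without control repeat 1 replicate 1, 120 and 81 without control repeat 1 replicate 4, and 165 higher without control repeat 1 replicate 2. Without both arrays that stood apart they were 95 higher and 84 lower within control, and the interaction was called in 2 genes in each direction. The counts over both genotypes moved less on leaving out any 1 array, to 1013 to 1311 higher and 883 to 1230 lower genes.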

How the data were processed

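Striatal D1-MSN polysome-associated RNA of 16 mice was measured on Affymetrix arrays. Values are the log2 signals that the authors deposited, made with GCOS 1.4 and GCRMA per the submitters' processing notes. Each probe set's median over the arrays was within 5e-07 of 0 in the deposited table, so its values were centred before deposit. A further 16 columns of per-sample values were not used, because their names match no sample. Of 37174 probe sets 62 controls were left out of the tests. A gene is the mean of its probe sets with 1 listed symbol (29680 of 37112; 819 list several genes and 6613 none), and 29539 of these were matched by identifier to RefSeq.

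Differences were tested in limma 3.58.1 (R 4.3.3, lmFit and eBayes, two-sided) with repeat and genotype as terms. Differences within a genotype and the interaction came from a model with 4 groups. Calls used a Benjamini-Hochberg adjusted p under 0.05 over all features. Control measures had two-sided exact permutations of the repeat within genotype, adjusted over 5 measures. Lists are described by counts and medians and have no test.

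The arrays compared, the gene lists and the symbol classes were chosen with earlier results of these data known, and a further group of classes after these values were seen. The latest classes with counts in the text are those of endoplasmic reticulum entry, cathepsins, vacuolar ATPase, P-type ATPase, Zdhhc, tetraspanins, glycosyltransferases, G protein-coupled receptors, F-box and cullin ligases, Ube2 and lncRNA. Genes were named if they were among the 12 largest rises or falls with a residual SD of at least 0.075, up to 4 called members of each list, or sex-linked. Others are said to be named after their values were seen. Same-numbered arrays of the repeats did not deviate together. The number of arrays limits the precision. Alternatives were other scalings, a variance filter, robust variance, array weights, covariates for 3′ signal, oligodendrocyte markers and Y-linked genes, other summaries of probe sets, and arrays left out. Probe sequences were not used here.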

Additional observations from a re-analysis of the deposited data

Results flagged for a closer look

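Within groups of 4 or 5 arrays, 16 of 279 sets of values had 1 array far from the others by Dixon's ratio, and chance gives about 1 in 20. Control repeat 1 replicate 2 accounted for 5 of the 16. It was the highest of its group in 18S ribosomal RNA at 1.27, against 0.19 to 0.36 on the other 3 arrays, and in the mean of the cytosolic ribosomal proteins at 0.087, against -0.16 to -0.13. It was the lowest in Eif2s3y at -4.18, one of the 6 arrays with low Y-linked signal, in Ebp at -0.13 and in Psme3 at -0.44. Deletion repeat 1 replicate 2 was the highest of its group in Eif5b at -0.34, in Snrpf at -0.070 and in Sort1 at 0.51.

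Deletion repeat 2 replicate 2 was the lowest of its group in Ndufs5 at 0.015 and in Scn3b at -0.70. Other single values far below their group were those of Apoe at -1.66 on deletion repeat 2 replicate 1, Atp9a at -0.46 on deletion repeat 2 replicate 5 and Snap25 at 0.10 on deletion repeat 2 replicate 4. Adcy6 at 1.47 on deletion repeat 1 replicate 3, Eef2 at 0.20 on control repeat 1 replicate 4 and Frg1 at -0.27 on control repeat 1 replicate 3 lay far above theirs. None of these arrays was removed for these values, and the cause was not tested.

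In 2 genes the repeats separated without overlap in both genotypes but in opposite directions. The interaction was 0.52 for Ecpas and 1.40 for Taf1, deletion difference minus control difference. Neither passed the limma test of the interaction (adjusted p = 0.74).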

How the results depend on the processing

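Over 81 lists and classes and the counts of calls, 2372 of 2451 values obtained under alternatives stayed within 1.5 times or 1 SD of the reported value and 79 moved. For a list median this SD was the residual SD of the list's array mean, which can exceed the median. With the 3′ covariate the glutamatergic neuron median went from 0.15 to -0.059 and the oligodendrocyte median from 0.036 to -0.28, and both counted as staying. Of 2106 list medians under alternatives 134 had the opposite sign to the reported one, in 35 lists, and 12 of these also moved by over 1 SD. The counts over both genotypes moved by more only with genes of 2 or more probe sets (828 higher and 726 lower, from fewer genes tested). Elsewhere the cause was not tested. Within deletion the counts were 1197 and 1074 with array weights, 1023 higher with the 3′ covariate, and 392 to 736 higher and 343 to 714 lower without 1 array. Within control they were 164 higher with arrays centred on their medians, 122 lower with the 3′ covariate, 445 and 418 with the oligodendrocyte covariate, 95 and 84 without the 2 control arrays that stood apart, 64 and 43 with the genotypes fitted separately (chosen after seeing the data), and 103 to 287 higher and 81 to 255 lower without 1 array. Interaction calls were 1 lower probe set after quantile normalization, 2 and 2 genes and 3 and 6 probe sets without those 2 arrays, and 0 to 1 higher and 0 to 2 lower genes and 0 to 8 higher and 0 to 9 lower probe sets without 1 array. With the replicate block the counts were 400 and 356 within deletion, 100 and 81 within control, and 1 higher gene for the interaction. The 7 same-numbered pairs correlated at -0.55 to 0.10 and 1 of 7 best with its own number, so the numbers give no pairing.

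The 12 were the solute carrier, glycosyltransferase, cadherin, potassium channel, collagen, interferon, meningeal, F-box and nuclear and snoRNA host medians without features of residual SD under 0.075, the postsynaptic scaffold median with the 3′ covariate, the potassium channel median with centred arrays, and the cell cycle median after quantile normalization, all positive as reported. List medians moved mainly when those low-SD features were dropped. They were then 0.12 for vascular, -0.032 for meningeal, -0.055 for interferon, -0.070 for nuclear and snoRNA host, 0.11 for histone, -0.10 for solute carrier, -0.014 for potassium channel, -0.045 for collagen, -0.12 for Tmem, 0.073 for Ccdc, 0.063 for Rik, 0.063 for Gm, -0.45 for cathepsin, -0.17 for vacuolar ATPase, -0.075 for glycosyltransferase, -0.069 for cadherin, -0.14 for G protein-coupled receptor, -0.29 for P-type ATPase, 0.081 for Rbm, -0.037 for F-box and 0.064 for lncRNA genes. With the 3′ covariate they were -0.079 for unfolded protein response, -0.092 for postsynaptic scaffold and -0.011 for vacuolar ATPase genes. Centring the arrays gave 0.00087 for cell cycle, -0.0045 for potassium channel and 0.0058 for Rik genes, and quantile normalization -0.00065 for cell cycle and 0.0061 for Ccdc genes. The leucine-rich repeat genes were at -0.10 with array weights and -0.14 to 0.0062 without 1 array, and the unfolded protein response genes at -0.21 to -0.081 without 1 array.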
